A study of Mus musculus with 7 samples.

Results

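The genes of lipolysis and the lactate receptor gene Hcar1 were examined in epididymal fat of mice with and without an XBP1 transgene. The list held 10 gene symbols, and 9 of them were paired with a probe set that carries exactly 1 symbol: Hcar1, Pde3b, Pnpla2, Abhd5, G0s2, Lipe, Mgll, Plin1 and Aqp7. These 9 probe sets stand among 21789 of that kind on the array. Adrb3, the beta-3 adrenergic receptor and the tenth symbol, was not analysed here. Each measured gene had a single such probe set. Hcar1 was chosen by its p-value, which ranked 1 of all 21789 in the comparison of transgenic with wild type fat, and the other genes by their known place in lipolysis with results of the same comparison known. Values of that comparison are therefore given for these 9 genes as a description, with no test.

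Lipolysis is the stepwise release of fatty acids and glycerol from the triglyceride stored in a fat cell's lipid droplet. Catecholamines start it through beta-adrenergic receptors, which raise cyclic AMP and activate protein kinase A. The kinase phosphorylates the droplet coat and hormone-sensitive lipase. Insulin opposes the pathway by activating the cyclic AMP-degrading enzyme that Pde3b encodes, and lactate opposes it through the receptor encoded by Hcar1, which couples to the inhibitory G protein.

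The tissue was epididymal white adipose tissue of male C57Bl/6J mice aged 17 weeks and fed a chow diet. Of 7 samples, 4 were wild type and 3 came from aP2-XBP1 transgenic mice. The aP2 promoter is that of Fabp4, which is active in adipocytes and also in macrophages, and XBP1 is a transcription factor that enlarges the capacity of the endoplasmic reticulum. Each sample was read on 1 array of the 1-colour type, and all levels below are log2 values as deposited, so that a difference of 1 is a doubling. The labels do not say that every replicate came from its own animal, so the SDs give the spread between these samples.

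Promoter sequences are shown for 4 of the genes. Hcar1 is the gene chosen by its p-value, Plin1 had the closest transgenic values, and Lipe and Aqp7 carried matches to the motifs searched. Each window runs from 250 bases before to 50 bases after a RefSeq transcript start in build GRCm38.p6 and is written 5′ to 3′ on the gene's strand, with motif matches in capitals. They lie at chr5:123879954-123880253 (Hcar1, minus strand), chr7:79732727-79733026 (Plin1, minus strand), chr7:25395938-25396237 (Lipe, minus strand) and chr4:41047913-41048212 (Aqp7, minus strand).
Hcar1: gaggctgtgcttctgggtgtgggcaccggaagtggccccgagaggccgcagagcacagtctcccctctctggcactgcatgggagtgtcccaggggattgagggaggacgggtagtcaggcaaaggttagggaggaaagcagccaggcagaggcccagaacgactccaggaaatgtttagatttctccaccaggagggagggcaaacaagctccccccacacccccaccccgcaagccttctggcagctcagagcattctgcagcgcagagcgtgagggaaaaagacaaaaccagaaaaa
Plin1: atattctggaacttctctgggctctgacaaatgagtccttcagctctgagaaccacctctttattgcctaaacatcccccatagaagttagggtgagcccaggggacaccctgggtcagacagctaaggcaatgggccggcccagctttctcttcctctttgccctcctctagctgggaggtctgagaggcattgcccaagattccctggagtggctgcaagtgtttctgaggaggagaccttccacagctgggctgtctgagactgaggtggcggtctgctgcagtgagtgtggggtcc
Lipe: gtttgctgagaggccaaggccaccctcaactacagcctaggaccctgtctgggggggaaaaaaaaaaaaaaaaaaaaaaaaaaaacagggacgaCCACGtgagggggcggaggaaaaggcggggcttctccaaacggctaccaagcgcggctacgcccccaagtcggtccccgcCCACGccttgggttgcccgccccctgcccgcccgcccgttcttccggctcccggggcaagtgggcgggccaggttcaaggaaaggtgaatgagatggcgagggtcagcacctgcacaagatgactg
Aqp7: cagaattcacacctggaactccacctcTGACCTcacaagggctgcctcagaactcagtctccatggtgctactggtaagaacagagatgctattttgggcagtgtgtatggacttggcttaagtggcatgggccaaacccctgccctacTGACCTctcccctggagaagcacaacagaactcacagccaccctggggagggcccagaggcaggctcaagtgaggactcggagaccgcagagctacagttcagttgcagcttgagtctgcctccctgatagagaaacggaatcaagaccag

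The motifs were searched on both strands. They were TGACGTGG, the core bound by XBP1 in the unfolded protein response; TGACGTCA, the cyclic AMP response element; AGGTCA, a hexamer of nuclear receptors; and CCACG, the end of the endoplasmic reticulum stress element. RefSeq windows were found for 8 of the 9 genes, 11 windows in all, Lipe, Mgll and Aqp7 having 2 each. TGACGTGG and TGACGTCA matched 0 of the 11, against 0.676% and 1.79% of all 32851 windows. AGGTCA matched 3 of 11 windows (in Abhd5 and both of Aqp7), against 16.3% of all windows. The 2 windows of Aqp7 overlap and share 1 site, which is counted in both. CCACG matched 4 of 11 (G0s2, 1 of Lipe and both of Mgll), against 32.8%. In the Lipe window shown the 2 matches of CCACG begin 156 and 76 bases before the start. In the Aqp7 window they are 2 reverse matches of AGGTCA, at 223 and 101 bases before it. The windows of Hcar1, Plin1 and Pnpla2 held none of these letters, which says nothing of sites elsewhere.

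The wild type libraries were not alike in tissue content, and how far this bears on the results that follow was not tested. Wild type replicates 1, 3 and 4 held the epididymal transcript Serpina1f at 10.70, 10.84 and 11.50, against 2.74 for wild type replicate 2 and between 2.83 and 3.73 for the transgenic libraries. Of the 9 measured epididymal markers, 6 stayed under 5 in every library. Smooth muscle markers, 9 of 9 of them lower in transgenic fat, followed the same libraries, with a list mean of 8.81, 8.82 and 9.33 there, 6.79 for wild type replicate 2 and between 6.28 and 6.85 for the transgenic libraries. Mesothelial markers, 4 of 4 of them higher in transgenic fat by their means with a median of 0.62, averaged 5.06, 6.93, 5.67 and 6.31 in wild type replicates 1 to 4 and 6.33 to 6.88 in transgenic libraries. Wild type replicate 1 was the lowest and wild type replicate 2 the highest wild type library for this list, as for most of the lipolysis genes. Endothelial markers, 6 of 6 higher with a median of 0.25, spanned 7.73 to 8.13 in wild type and 8.03 to 8.27 in transgenic libraries. Macrophage markers, 6 of 7 lower with a median of -0.28, spanned 8.03 to 9.39 and 8.52 to 8.80. Germ cell markers averaged 7.70 in wild type replicate 4 and 3.16 to 3.49 in all other libraries. The transgene's own gene, Xbp1, averaged 9.03 ± 0.13 (SD, n = 4) for wild type and 9.80 ± 0.17 (SD, n = 3) for transgenic fat. It differed by 0.77, and by 0.73 against wild type replicate 2 alone.

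Adipocyte markers followed the same division in reverse. The 10 measured adipocyte markers that are not among the 9 genes were all higher in transgenic fat by their means. Their list mean was 10.27, 10.50 and 10.56 for wild type replicates 1, 3 and 4, and 10.93 for wild type replicate 2. In transgenic fat it was 10.93, 10.90 and 11.09. Wild type replicate 2 thus lay within the transgenic range. In bulk tissue, fewer adipocytes and less RNA per adipocyte cannot be told apart. The part of this in the results below was not tested, and the differences of the 9 genes are given also against wild type replicate 2 alone and after subtracting the library's adipocyte mean. Genes of the further lists are given against wild type replicate 2 as well, without the subtraction.

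**Figure D1:**
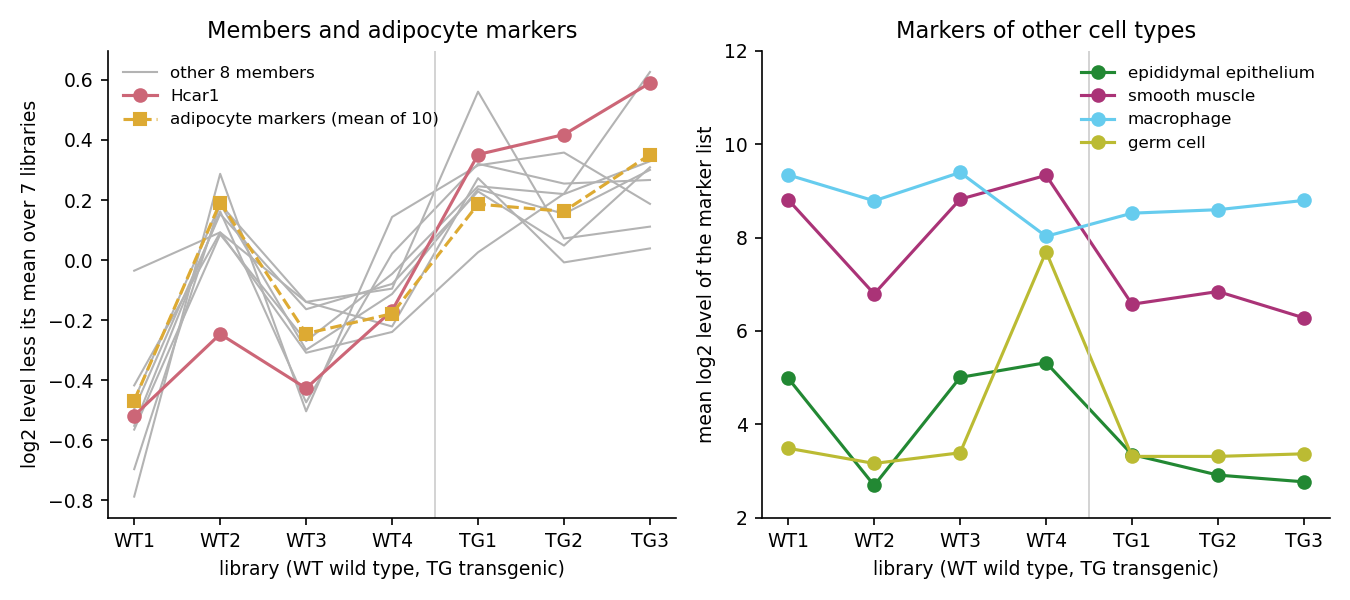
Left, log2 level of Hcar1, the other 8 genes and the mean of 10 adipocyte markers in each library, less the mean over the 7 libraries; right, mean log2 level of 4 marker lists of other cell types. Lines only join the values of a gene or list. Wild type replicate 2 lacks the epididymal signal (2.69 against 4.99 to 5.32 in the other wild type libraries). There 8 genes and the adipocyte markers reach their highest wild type level. Hcar1 reads 7.10 there, second to 7.18 in wild type replicate 4.

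Hcar1 (probe set 10533725) had the largest difference between genotypes among the 9 genes. Hcar1, the receptor through which lactate restrains lipolysis, read 6.83, 7.10, 6.92 and 7.18 in wild type replicates 1 to 4, and 7.70, 7.77 and 7.94 in transgenic replicates 1 to 3. All transgenic libraries were above all wild type libraries, as for 3.38% of all probe sets. The gap between the groups was 0.52, and the ranges were 0.35 within wild type and 0.24 within transgenic fat. Hcar1 was chosen by its p-value in this comparison, which favours such a gap, so nothing is read from it. The means were 7.01 ± 0.16 (SD, n = 4) and 7.80 ± 0.12 (SD, n = 3), which are 0.79 apart (SE 0.10), or 1.73-fold. Against wild type replicate 2 alone the difference was 0.70, or 1.62-fold. After subtracting the adipocyte mean it was 0.38, and 0.66 against wild type replicate 2, and the groups still did not overlap. Leaving out any 1 library kept it between 0.72 and 0.85.

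In the fit over the whole table with limma, 0 of 21789 probe sets (0%) passed an adjusted p of 0.05 in either direction, the smallest adjusted p being 0.622. At an unadjusted p under 0.05 limma found 1050 higher (4.82%) and 679 lower (3.12%). All 9 had a higher transgenic mean, as had 53.6% of all probe sets. Groups did not overlap, with transgenic higher, for 3 of the 9 (Hcar1, Pnpla2 and Plin1), against 3.38% of all. Since these genes were chosen with the comparison known, nothing is read from these counts. The median difference of the 9 was 0.46, and 0.45 without Hcar1, beside 0.01 over all probe sets. All 9 differences kept their sign when the arrays were quantile normalized again or shifted to a common median.

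**Figure D2:**
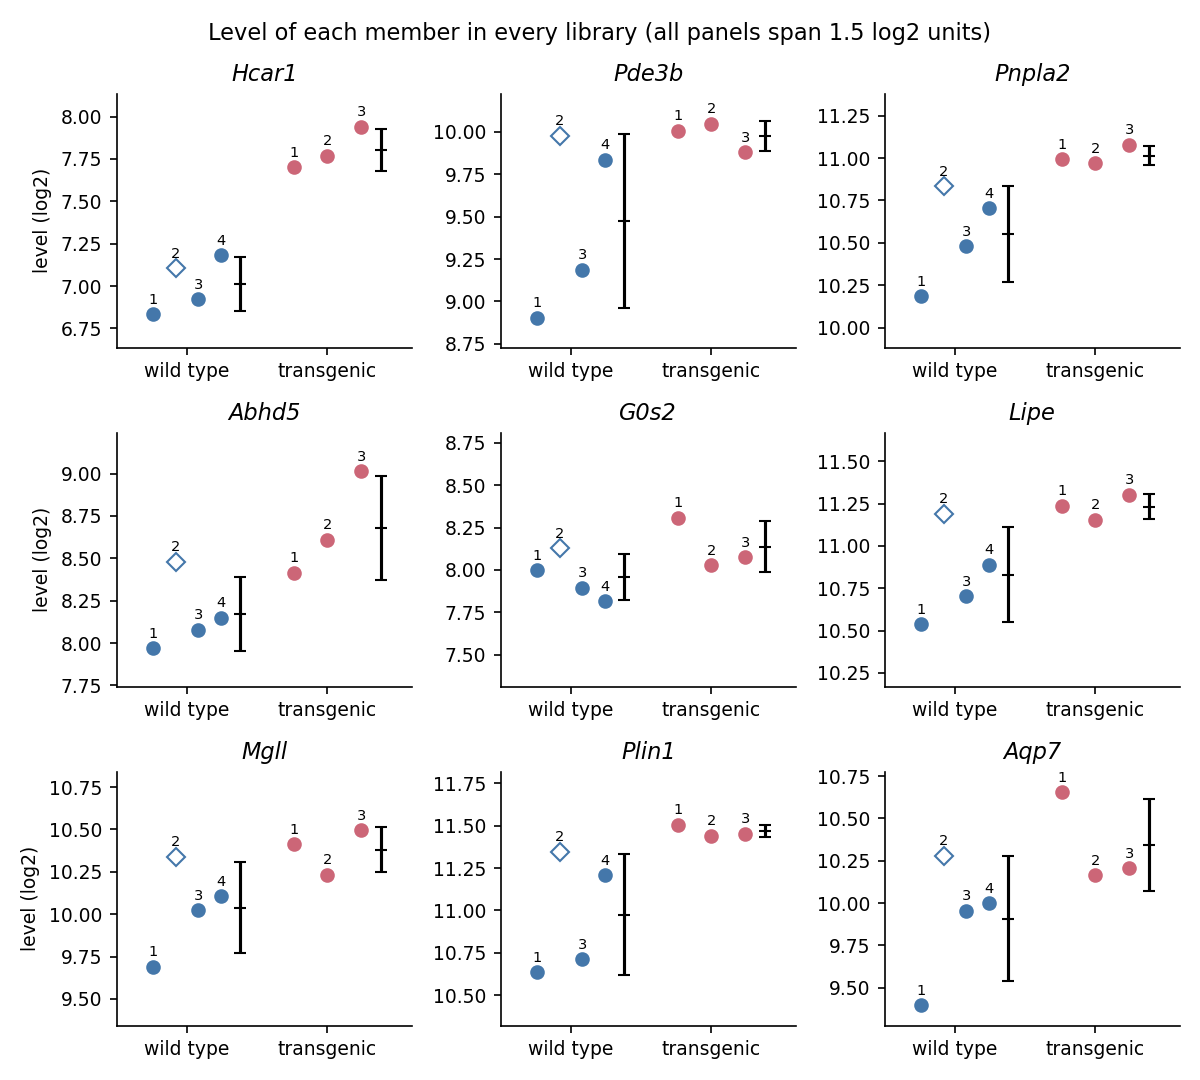
Log2 level of each gene in every library, with the replicate number above each point and the mean and SD beside each group; the open diamond is wild type replicate 2, and every panel spans the same 1.5 log2 units. Hcar1 separates the groups by 0.52, while for most other genes wild type replicate 2 lies beside the transgenic libraries and wild type replicate 1 far below them.

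Pde3b (10556528), the phosphodiesterase through which insulin lowers cyclic AMP in fat, varied most among wild type libraries. It read 8.90, 9.98, 9.19 and 9.84 in wild type replicates 1 to 4, and 10.01, 10.05 and 9.88 in transgenic replicates 1 to 3. Wild type replicates 1 and 3 were low, wild type replicate 4 lay just below the transgenic libraries and wild type replicate 2 among them, so the groups overlapped. The difference of the means was 0.50 (SE 0.27), or 1.42-fold. It was -0.00035 against wild type replicate 2 alone and 0.31 without wild type replicate 1.

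The first step of lipolysis removes a fatty acid from triglyceride. Pnpla2 (10558921) encodes its enzyme, adipose triglyceride lipase, and read 10.18, 10.83, 10.48 and 10.70 in wild type and 10.99, 10.97 and 11.08 in transgenic fat. The groups did not overlap, but wild type replicate 2 was 0.13 below the lowest transgenic library and 0.65 above wild type replicate 1. The means were 10.55 ± 0.28 (SD, n = 4) and 11.01 ± 0.06 (SD, n = 3), which are 0.46 apart (SE 0.15), or 1.38-fold, and 0.18 against wild type replicate 2.

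Abhd5 (10590452) encodes CGI-58, the coactivator of that lipase. It read 7.97, 8.48, 8.08 and 8.15 in wild type replicates 1 to 4 and 8.41, 8.61 and 9.01 in transgenic replicates 1 to 3. Transgenic replicate 3 was high, and transgenic replicate 1 lay below wild type replicate 2. This was the only gene of the 9 whose transgenic range, 0.60, was wider than its wild type range, 0.51. The difference was 0.51 (SE 0.18), or 1.42-fold, and 0.20 against wild type replicate 2.

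G0s2 (10361246), whose product inhibits adipose triglyceride lipase, had the smallest difference of the 9. It read 8.00, 8.13, 7.90 and 7.81 in wild type and 8.31, 8.03 and 8.07 in transgenic fat. Transgenic replicate 1 was above every wild type library, and the other transgenic libraries lay below wild type replicate 2. The difference was 0.18 (SE 0.10), 0.09 without transgenic replicate 1 and 0.01 against wild type replicate 2. After subtracting the adipocyte mean it was -0.23, the lowest of the 9.

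Separate lipases carry out the later steps. Lipe (10561031), which encodes hormone-sensitive lipase, the main diglyceride hydrolase of fat, read 10.54, 11.19, 10.70 and 10.89 in wild type and 11.24, 11.16 and 11.30 in transgenic fat. Wild type replicate 2 lay above transgenic replicate 2, and the other wild type libraries lay below all transgenic ones. The difference was 0.40 (SE 0.15), or 1.32-fold, and 0.04 against wild type replicate 2. Mgll (10539894), which encodes the monoglyceride lipase of the last step, read 9.69, 10.34, 10.02 and 10.11 in wild type and 10.41, 10.23 and 10.49 in transgenic fat. Here too wild type replicate 2 lay above transgenic replicate 2 alone. The difference was 0.34 (SE 0.15), 0.23 without wild type replicate 1 and 0.04 against wild type replicate 2.

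Plin1 (10564795) encodes perilipin 1, the coat protein that holds CGI-58 away from the lipase until the kinase phosphorylates it. It read 10.63, 11.35, 10.71 and 11.21 in wild type and 11.51, 11.44 and 11.45 in transgenic fat. Transgenic libraries differed by only 0.07 among themselves, the smallest range of the 9 genes, while wild type libraries spread over 0.71. The groups did not overlap, by 0.09. The difference was 0.49 (SE 0.19), or 1.41-fold, and 0.12 against wild type replicate 2.

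Aqp7 (10512145) encodes the channel by which glycerol leaves the fat cell. It read 9.40, 10.28, 9.96 and 9.999 in wild type and 10.66, 10.17 and 10.21 in transgenic fat. Transgenic replicate 1 was the highest library, and the other transgenic libraries lay below wild type replicate 2. The difference was 0.43 (SE 0.23), or 1.35-fold, 0.26 without wild type replicate 1 and 0.06 against wild type replicate 2.

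The 8 genes other than Hcar1 shared a pattern within wild type fat that genotype does not enter. Wild type replicate 2 was the highest wild type library for all 8. For Hcar1 it was wild type replicate 4 at 7.18, with wild type replicate 2 close behind at 7.10. Over all probe sets wild type replicate 2 was the highest wild type library in 24%. Wild type replicate 1 was the lowest wild type library for 8 of the 9 genes, the exception being G0s2. This pattern was noticed in these data, and it runs with the adipocyte list, which was also lowest in wild type replicate 1 and highest in wild type replicate 2.

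Against wild type replicate 2, the single wild type library without the epididymal signal, the 8 genes differed by -0.00035 to 0.20 and Hcar1 by 0.70. Only Hcar1 of the 9 was at least 0.5 above that library, as were 0.867% of all probe sets. With 1 control library there is no replicate check on these values. Relative to the adipocyte mean of each library, 6 of the 9 genes were higher and 3 (G0s2, Lipe and Mgll) lower in transgenic fat. The difference stood at 0.38 for Hcar1. It was 0.09 for Pde3b, 0.06 for Pnpla2, 0.10 for Abhd5, 0.08 for Plin1 and 0.03 for Aqp7, and -0.23 for G0s2, -0.0055 for Lipe and -0.07 for Mgll, and the groups of these 8 genes overlapped. On that scale the transgenic libraries were all above the wild type libraries for 1 of the 9 genes, Hcar1, and for 0.197% of all probe sets. Hcar1 was chosen by its p-value in this same comparison, so nothing is read from its place beside these shares or beside the other 8 genes.

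**Figure D3:**
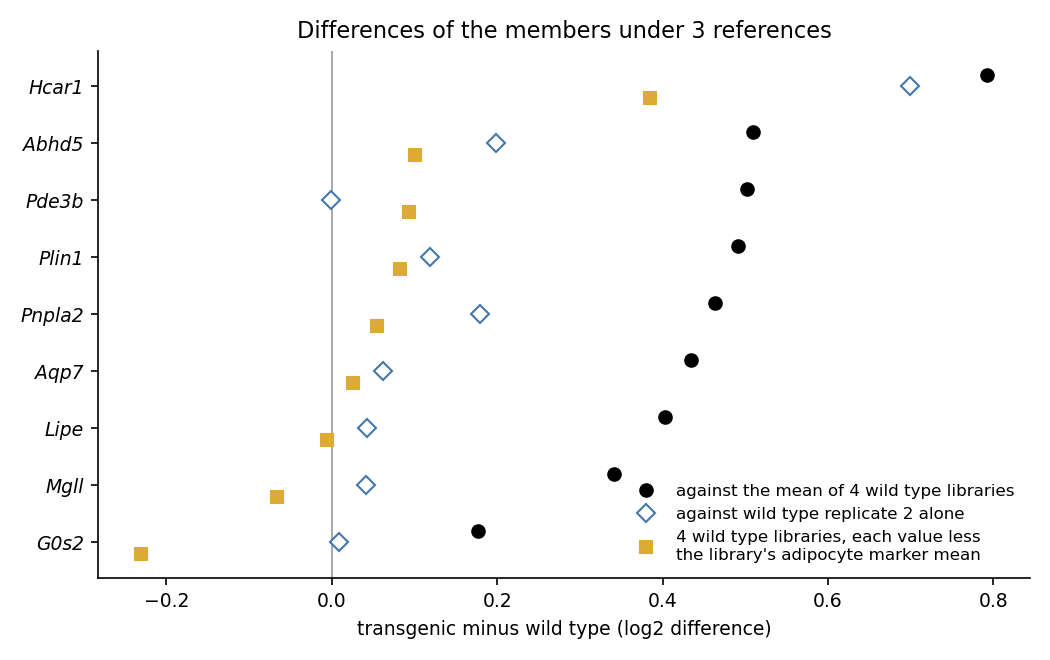
Transgenic minus wild type difference of each gene in log2 units, against all 4 wild type libraries (filled circles), against wild type replicate 2 alone (open diamonds) and after subtracting each library's adipocyte marker mean (squares). Hcar1 is at 0.79, 0.70 and 0.38, while the other 8 genes move from between 0.18 and 0.51 to between -0.00035 and 0.20 and between -0.23 and 0.10.

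The profiles of the genes over the 7 libraries were set side by side by the root mean square distance between log2 values, each gene centred on its own mean. The median distance from Hcar1 over 9895 genes of at least median brightness was 0.42. Of the lipolysis genes Pnpla2 was nearest to Hcar1, at 0.20 (rank 96), followed by Abhd5 at 0.20 (rank 124) and Plin1 at 0.22 (rank 186), and G0s2 was farthest, at 0.36. From Plin1 the nearest of these genes were Pnpla2 at 0.09 (rank 20), Lipe at 0.10 (rank 33) and Pde3b at 0.12 (rank 87), and Hcar1 ranked 809. Plin1 was taken as a second reference after its values were seen.

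Outside the lipolysis list, 5 genes were nearest to Hcar1 among 9887 compared. C2cd2l, a lipid transfer protein gene, lay at a distance of 0.09, Cpt2, the inner mitochondrial carnitine palmitoyltransferase, at 0.12 and Cluh, an RNA-binding protein of mitochondrial messages, at 0.12. Fbxo45, of a ubiquitin ligase, lay at 0.13 and Pxmp2, a peroxisomal membrane channel, at 0.14. C2cd2l read 5.45, 5.61, 5.42 and 5.57 in wild type and 6.10, 6.15 and 6.51 in transgenic fat, with no overlap. Against wild type replicate 2 alone it differed by 0.64, Cpt2 by 0.47, Fbxo45 by 0.44, Pxmp2 by 0.39 and Cluh by 0.33. These 5 genes were picked by likeness to Hcar1, itself chosen by its p-value in the comparison of genotypes. Nothing is therefore read from their differences or from the lack of overlap. When each value was centred on its genotype mean, which removes the difference between groups, the nearest were Fbxo9, Zhx3 and Purb, each at 0.03. Their differences between genotypes were 0.27, 0.18 and -0.00479.

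Hcar2, which encodes the related receptor of niacin and beta-hydroxybutyrate, is the neighbour of Hcar1 on its chromosome in the RefSeq gene order. It read 4.65, 4.69, 4.43 and 4.71 in wild type and 4.96, 5.34 and 4.72 in transgenic fat. All transgenic values were higher, though transgenic replicate 3 exceeded wild type replicate 4 by very little, and the gene was dim. The difference was 0.39 (SE 0.15, limma adjusted p = 0.622), 0.22 without transgenic replicate 2 and 0.31 against wild type replicate 2. Whether the Hcar1 and Hcar2 probes read each other's transcript was not tested. Denr, the neighbour on the other side of Hcar1, differed by 0.03.

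Further genes of the pathway were taken from 9 lists with 95 genes, of which 86 were measured. By limma 0 of the 86 passed over all probe sets in either direction, and at an unadjusted p under 0.05 there were 19 higher and 4 lower of the 86, against 4.82% and 3.12% of all probe sets. A higher transgenic mean was found for 56 and a lower mean for 30, with a median difference of 0.15. Over all probe sets 53.6% had a higher transgenic mean. Groups did not overlap for 11 with transgenic higher and for 1 with transgenic lower, against 3.38% and 2.44% of all probe sets. The lists were chosen with earlier results of these data known and hold adipocyte markers such as Pparg and Cebpa. Nothing is therefore read from these counts.

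Among receptors, the other genes that restrain lipolysis through the inhibitory G protein had a higher mean in 6 of 6 cases. Over all probe sets this share was 53.6%. The median of the 6 was 0.38 and 0 passed. Ffar2, a receptor of short-chain fatty acids, differed by 0.38 but by -0.14 against wild type replicate 2. Ptger3, Ffar4 and Sucnr1 also had transgenic means (6.58, 5.74 and 7.99) below wild type replicate 2 (6.95, 5.83 and 8.05). Hcar2 and Npy1r had transgenic means above it. In the list of receptors for lipolytic hormones and natriuretic peptides 8 of 8 had a higher mean, with a median of 0.30 and 0 passing. The 8 include Npr3, the clearance receptor that removes natriuretic peptides, with overlapping groups and a difference of 0.46. Npr3 read 11.44 in wild type replicate 2, above the transgenic libraries at 11.43, 11.21 and 11.19. Npr1 and Npr2 also had transgenic means (6.68 and 7.14) below wild type replicate 2 (6.90 and 7.16). The other genes of that list had transgenic means above it. Mc2r, the corticotropin receptor, read 4.79, 5.19, 4.67 and 4.81 in wild type and 5.68, 5.41 and 5.55 in transgenic fat. The groups were separate, with a difference of 0.68 (SE 0.14, limma adjusted p = 0.622) and 0.36 against wild type replicate 2. Without wild type replicate 2, its highest wild type library, this gene passed (difference 0.79, limma adjusted p = 0.0462). All wild type libraries left in that fit carried epididymal transcripts, so genotype and tissue content cannot be told apart there. Gcgr, the glucagon receptor, was dim and differed by 0.21, and by 0.32 against wild type replicate 2.

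Signalling genes below the receptors were mixed. Of 16 measured genes for G proteins, adenylyl cyclases and protein kinase A, the transgenic mean was above wild type for 5 and below it for 11. The median was -0.08 and 0 passed. Gnai1, an inhibitory G protein subunit, read 9.24, 10.28, 9.76 and 9.94 in wild type and 10.46, 10.48 and 10.49 in transgenic fat. Its difference was 0.67 (SE 0.23, limma adjusted p = 0.622), and 0.20 against wild type replicate 2. Prkacb, a catalytic subunit of protein kinase A, differed by -0.31, and by -0.08 against that library. Among 9 other phosphodiesterases the median was -0.01 with 0 passing; Pde8a, an enzyme specific for cyclic AMP, differed by -0.23 with groups that did not overlap, and by -0.35 against wild type replicate 2. Pde3a differed by -0.12, by -0.08 without transgenic replicate 1 and by -0.11 against wild type replicate 2.

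**Figure D4:**
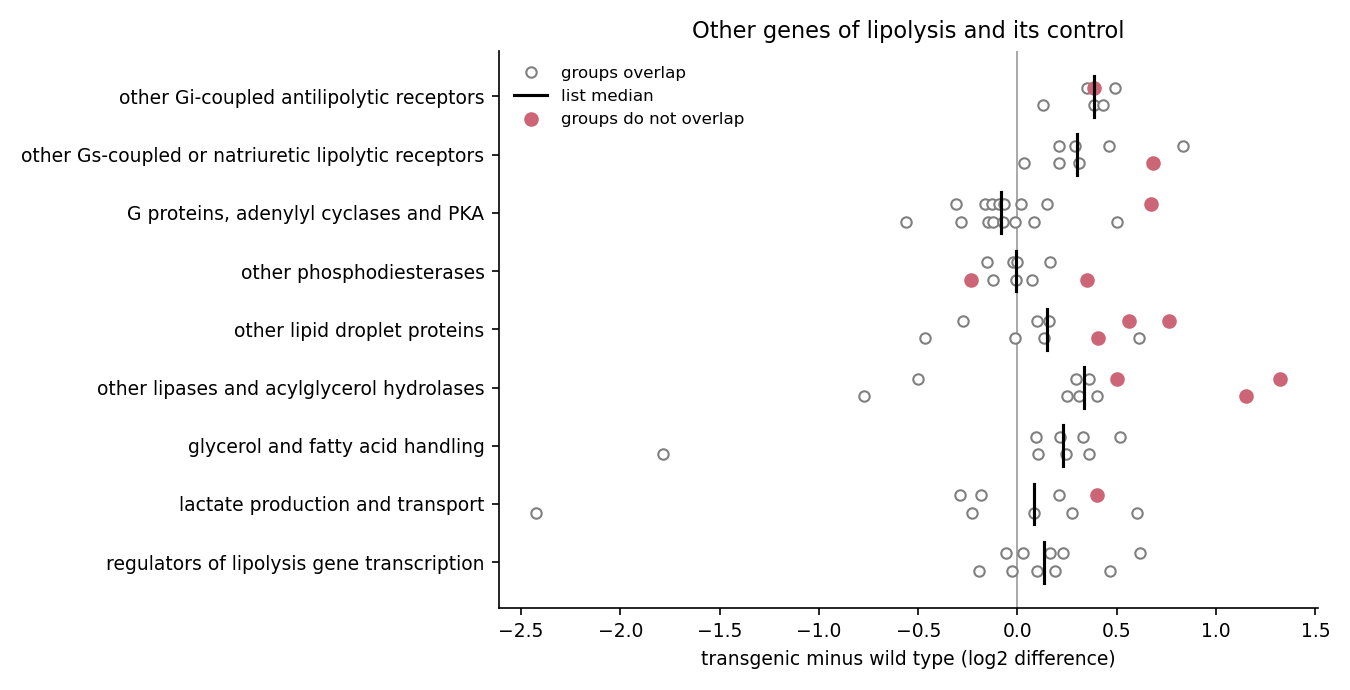
Log2 difference, transgenic minus wild type, of the measured genes of 9 further lists; filled points are genes whose groups did not overlap and the bar is the list median. Receptor genes lie to the right of 0, kinase and cyclase genes around it, and Ces1f (1.32) and Pnpla3 (1.15) have the highest values.

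Other lipases held the largest positive differences of the pathway. In that list 8 of 10 genes had a higher mean, with a median of 0.34 and 0 passing. Ces1f, a carboxylesterase, read 7.31, 8.03, 7.19 and 8.03 in wild type and 8.38, 9.54 and 8.97 in transgenic fat, a difference of 1.32 (SE 0.34, limma adjusted p = 0.622) and 0.93 against wild type replicate 2. Pnpla3, a relative of Pnpla2, read 6.24, 7.18, 6.47 and 7.14 in wild type and 7.21, 7.98 and 8.55 in transgenic fat. Transgenic replicate 1 stood barely above wild type replicate 2. The difference of Pnpla3 was 1.15 (SE 0.38, limma adjusted p = 0.622), and 0.73 against that library.

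Droplet proteins had 7 of 10 higher means, a median of 0.15 and 0 passing. Cidea, which promotes droplet fusion, read 4.29, 5.27 and 4.87 in transgenic fat and 3.81 to 4.14 in wild type, so it was dim. Its difference was 0.76 (limma adjusted p = 0.622). It was between 0.53 and 1.02 with 1 library left out, and 0.68 against wild type replicate 2. Fitm2, which supports droplet formation, differed by 0.56, and by 0.16 against that library. Of 8 genes for glycerol and fatty acid handling 7 had a higher mean, the median was 0.23 and 0 passed. The fatty acid transporter Slc27a1 differed by 0.52, and by 0.21 against wild type replicate 2, which at 10.05 lay above transgenic replicate 2 at 9.98. Aqp9, another glycerol channel, differed by -1.78, and by -0.27 against wild type replicate 2. Wild type replicates 1, 3 and 4, which carried epididymal transcripts, held it at 6.80, 6.91 and 7.69, against 5.11 for wild type replicate 2 and between 4.48 and 5.23 for the transgenic libraries.

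Lactate, the ligand of the Hcar1 product, is made from pyruvate by lactate dehydrogenase. Of 9 genes for its production and transport 5 lay higher and 4 lower by their means, with a median of 0.08 and 0 passing. Ldha, the A subunit, read 10.90, 11.03, 10.90 and 10.85 in wild type and 11.04, 11.37 and 11.55 in transgenic fat. Transgenic replicate 1 exceeded wild type replicate 2 only slightly, and the difference was 0.40 (SE 0.12, limma adjusted p = 0.622) and 0.29 against that library. Hk2, a hexokinase of the first step of glycolysis, differed by 0.60, and by 0.13 against wild type replicate 2.

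Regulators of the transcription of lipolysis genes had 7 of 10 higher means, a median of 0.13 and 0 passing. Pparg, the nuclear receptor of fat cell identity, read 8.52, 9.08, 8.42 and 8.57 in wild type and 9.09, 9.01 and 9.25 in transgenic fat. Wild type replicate 2 lay among the transgenic values, and the difference was 0.46 (SE 0.17, limma adjusted p = 0.622) and 0.03 against that library. Cebpa, its partner in adipocyte differentiation, differed by 0.61 and by 0.11 in the same order.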

How the data were processed

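RNA of 7 samples of epididymal fat was measured on 1-colour arrays, 4 wild type and 3 aP2-XBP1 transgenic. The deposited table holds log2 expression values for 35556 probe sets, which the authors made with RMA per the submitters' processing notes. RMA corrects background, normalizes by quantiles and summarises probes, so a shift common to all genes would not be seen. Its version is not given in the sources used here, nor are the probe set definition and the genome build. Background correction could not be varied. Array medians were 4.03 to 4.04 among wild type and 3.99 to 4.01 among transgenic samples, and pairwise correlations over all rows 0.973 to 0.990. The number of arrays limits the precision.

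Genes were named from the platform annotation, whose symbols can be old. Of the rows, 21789 had exactly 1 symbol, 1621 several and 12146 none, and the highest-mean row stood for a gene. The 21789 rows were fitted by genotype alone in R 4.3.3 with limma 3.58.1 (two-sided, lmFit then eBayes), as transgenic minus wild type, with Benjamini-Hochberg adjustment at 0.05, after the script was tested on simulated data. The genes and lists were chosen with earlier results of these data known. The text names all measured genes of the lipolysis list, and of each further list up to 4 passing genes or else the 2 of smallest p. It also names the 5 genes nearest to Hcar1, the 3 nearest after centring within genotype, and genes that check the transgene and the tissue. Emb, Denr, Npr1, Npr2, Npr3, Ptger3, Npy1r, Ffar4 and Sucnr1 were named after their values were seen.

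The alternatives tried were the replicate number as a block, quantile normalization again, a common array median, leaving out the dimmest 25% of rows, testing every row, 1 row per gene, a robust prior with an intensity trend, weights per array, leaving out each library, wild type replicate 2 as the only control, all probe sets of a gene, and subtracting the adipocyte marker mean. Plots used matplotlib 3.10.9 under Python 3.11.15.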

Additional observations from a re-analysis of the deposited data

Results flagged for a closer look

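In a group of 4 samples, a value was marked when its gap to the nearest other sample took up more of the group's range than Dixon's 95% critical value, which chance gives in about 1 of 20 groups. Among 49 genes and marker lists tested in wild type fat 5 were marked, and 0 of the 9 lipolysis genes were among them. Cidea was low in wild type replicate 1 (3.81, others 4.12 to 4.14). Serpina1f was low in wild type replicate 2 (2.74, others 10.70 to 11.50), and so was the epididymal list (2.69, others 4.99 to 5.32). Wild type replicate 4 had a high germ cell list (7.70, others 3.16 to 3.49) and a low fibroblast and progenitor list (8.80, others 9.31 to 9.35).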

How the results depend on the processing

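The difference of Hcar1 moved by less than the spread between replicates in every setting but 1: it was 0.38 after subtracting the adipocyte markers. Leaving out the dimmest rows, testing every row, 1 row per gene and the robust prior with a trend cannot change a difference. Those settings are therefore no check on it. The median difference of the 9 genes was 0.062 against wild type replicate 2 alone and 0.055 after subtracting the adipocyte markers without the listed genes. Leaving out each library gave 0.72 to 0.85 for Hcar1 and 0.31 to 0.56 for the median. Probe sets passing by limma numbered 0 to 91 with 1 library left out, the 91 (7 higher, 84 lower) without wild type replicate 2, and 1729 passed at an unadjusted p of 0.05. Of the 86 other pathway genes 0 to 2 passed with 1 library left out. The 2, Mc2r (higher) and Emb (lower by 3.17 on the log2 scale, limma adjusted p = 0.0251), passed without wild type replicate 2. In that fit all wild type libraries carried epididymal transcripts, so genotype and tissue content cannot be told apart. Emb read 8.62, 8.62 and 9.30 in wild type replicates 1, 3 and 4 and 5.87 in wild type replicate 2. Samples of the same replicate number did not deviate together (correlations of -0.10, -0.08 and -0.08). Those of unlike number correlated at -0.0079 to 0.076. No sign of pairing by number was seen, but so few libraries cannot exclude it. The replicate block left out wild type replicate 4, which has no transgenic library of its number. With it Hcar1 differed by 0.85, the median difference was 0.50, and 0 probe sets passed. Leaving out wild type replicate 4 without a block gave the same differences, so the block itself moved none of them. Using all probe sets of a gene changed nothing, each of the 9 genes having 1. Signals near the dim end, such as Gcgr at 3.38 and Cidea at 4.05 in wild type fat, limit what can be read of such genes.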
